A study of Mus musculus with 2 samples.

Results

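miR-126a is a mouse microRNA cut from a hairpin that lies within Egfl7, a gene for a secreted protein of blood vessel cells. Its members here are the mature products of the 2 arms of that hairpin, miR-126a-3p and miR-126a-5p. They were taken by name from the small RNA tables of a Th17 and a Th0 culture, and they are 2 of the 1125 mature miRNAs listed in at least 1 of these tables. The pair was selected on its read counts scaled to library size, because both arms had lower values in Th17 than in Th0, so that direction is a description of how the pair was picked and not a finding.

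Both cultures began with naive CD4+CD62L+ helper T cells from the spleen of female C57BL/6 mice, grown in medium with 10% foetal bovine serum. The Th17 culture received anti-CD28 (1 µg/ml), anti-IL-4, anti-IFN-γ, anti-IL-2 and anti-IL-12 (5 µg/ml each), TGF-β (2 ng/ml), IL-6 (40 ng/ml), IL-1β (10 ng/ml) and IL-23 (40 ng/ml), and lasted 6 to 7 days. The Th0 culture received anti-CD28 (1 µg/ml), anti-IL-4 and anti-IFN-γ (5 µg/ml each), and the sources used here do not give its length. Culture time and the added agents therefore cannot be told apart in any ratio given. The tables hold 1 library per group, with 11975371 listed reads for Th17 and 8358010 for Th0. The series' design text speaks of triplicates, and the sources used here do not say how they became 1 column per group. No difference could therefore be set against the spread between cultures, and no p-value is given. Each interval is a 95% interval of counting error alone and treats every read as an independent molecule. Reads that are PCR copies are not independent, so the intervals can be too narrow.

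A microRNA guides the Argonaute complex to messenger RNAs, mostly by pairing through its seed, the bases near its 5′ end. miR-126 is best known from endothelial cells, where in mouse and zebrafish it supports vascular integrity by lowering Spred1 and Pik3r2, inhibitors of signalling downstream of VEGF. In blood it restrains the cycling of haematopoietic stem cells, and it has been studied in regulatory T cells through Pik3r2, a regulatory subunit of PI3 kinase. The 3p arm was the product first called miR-126, and the 5p arm was first called miR-126*, a mark then used for the lesser strand of a hairpin.

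The hairpin and its 3p product are shown because the arm comparison below turns on which strand of this hairpin was read, and the antisense miRNA is shown because it covers the same bases on the opposite strand. Sequences are those of RefSeq on GRCm38.p6, written 5′ to 3′. Of the members, miR-126a-3p matched an entry by name and miR-126a-5p is named only. Capitals mark the seed (bases 2 to 8) in miR-126a-3p, the whole 3p product in the hairpin, and in miR-126b-5p the bases antisense to miR-126a-3p.
miR-126a-3p: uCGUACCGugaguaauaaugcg
Mir126a hairpin: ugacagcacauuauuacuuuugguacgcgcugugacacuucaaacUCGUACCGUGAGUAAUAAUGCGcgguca
miR-126b-5p: AUUAUUACUCACGGUACGAguu

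The hairpin lies at chr2:26591357-26591429 on the plus strand, and miR-126a-3p takes its bases 46 to 67 (chr2:26591402-26591423). Egfl7 spans chr2:26580014-26593120 on the same strand in the GENCODE M21 annotation. Of its 19 annotated transcripts 9 span the hairpin, and in 8 of these the hairpin is intronic. In the shorter form that intron is 600 bases long. Gm20532, a longer protein-coding gene model on the same strand, also covers the hairpin. Mir126b lies on the minus strand at chr2:26591363-26591420, inside the Mir126a hairpin.

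The seed of miR-126a-3p was not shared. Of 1679 mouse mature miRNAs in the RefSeq table, 1 had these bases 2 to 8, miR-126a-3p itself, and 1 had the same bases 2 to 7. The seed holds the dinucleotide CG at 2 places, as did 1.13% of the seeds in the table, whereas 13.0% held at least 1. miR-126a-3p is 22 bases long with a GC content of 45.5%, against a median of 52.2% over the table, and it starts with U, as did 40.9% of the entries.

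miR-126a-5p was the more abundant arm in both libraries. It had 850 reads in Th17 and 1199 reads in Th0. Scaled to the listed reads of each library, this was 71.0 CPM (counts per 1e+06 listed reads) in Th17, with an exact Poisson interval of 66.3 to 75.9, and 143 CPM in Th0, with an interval of 135 to 152. The intervals of the libraries did not overlap, and the level was 2.02-fold lower in Th17 (exact conditional interval 1.85 to 2.21), a log2 ratio of -1.02. By read count this arm ranked 166th in Th17 and 139th in Th0.

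miR-126a-3p, the arm with the published vascular targets, was the scarcer product. It had 179 reads in Th17 and 399 reads in Th0. Its level was 14.9 CPM in Th17 (12.8 to 17.3) and 47.7 CPM in Th0 (43.2 to 52.7). These intervals were also apart, and the level was 3.19-fold lower in Th17 (2.67 to 3.83), a log2 ratio of -1.68. It ranked 268th in Th17 and 198th in Th0.

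With both arms summed, the hairpin gave 1029 reads in Th17 and 1598 reads in Th0. That was 85.9 CPM in Th17 (80.8 to 91.3) and 191 CPM in Th0 (182 to 201), 2.23-fold lower in Th17 (2.06 to 2.41). The products made up 0.00859% of the listed reads in Th17 and 0.0191% in Th0, so they were minor components of both libraries. In RNA pooled from many cells, fewer cells carrying miR-126a and less miR-126a per cell cannot be told apart.

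**Figure D1:**
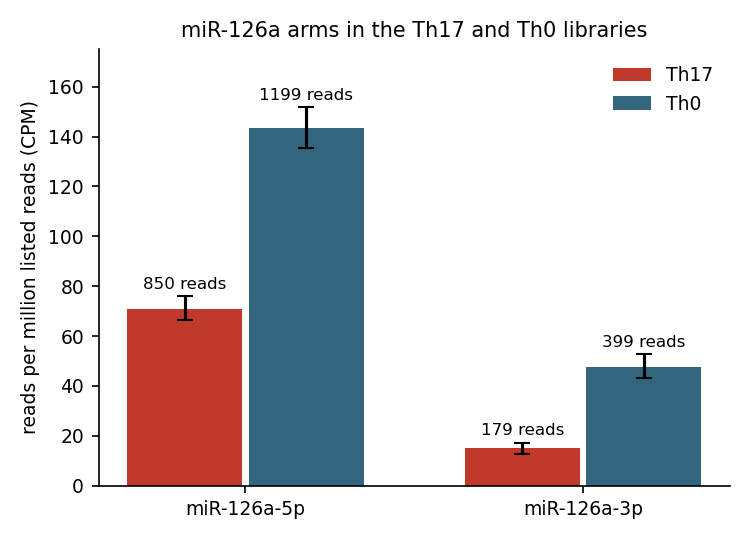
Level of each miR-126a arm (bars, CPM) in the Th17 library and the Th0 library, 1 library per group; error bars are exact 95% Poisson intervals of counting error and the read count stands above each bar. The 5p arm is at 71.0 CPM in Th17 and 143 CPM in Th0, and the 3p arm is at 14.9 CPM in Th17 and 47.7 CPM in Th0.

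The antisense hairpin gave almost nothing. miR-126b-5p, whose 19 capital bases above are complementary to miR-126a-3p, was listed with 1 read in Th17 and 1 read in Th0, under the floor of 3 reads, and no fold is given for it. miR-126b-3p was listed in neither library. Among other annotated miRNA genes within 1 Mb, Mir6996 was listed, and its miR-6996-5p had 113 reads in Th17 and 41 reads in Th0. Its miR-6996-3p had 3 reads in Th17 and none in Th0. Unlike the arms of Mir126a, this neighbour had more reads in Th17 than in Th0.

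The arms were set against all 298 miRNAs that averaged at least 10 CPM over both libraries. Of these, 39 (13.1%) were at least 2-fold lower in Th17 and 20 (6.71%) at least 2-fold higher, and the median log2 ratio was -0.080. Both miR-126a arms were among the 39. From the lowest log2 ratio upward, miR-126a-3p stood at place 18 and miR-126a-5p at place 39, the last one inside the 2-fold threshold. The neighbour just inside was miR-31-5p at a log2 ratio of -1.03, and the neighbours just outside were miR-127-3p at -0.998 and miR-92a-3p at -0.99. Whether miR-126a-5p counts as 2-fold lower depends on the scaling: with DESeq2 size factors it was 1.91-fold lower, while miR-126a-3p was 3.03-fold lower.

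**Figure D2:**
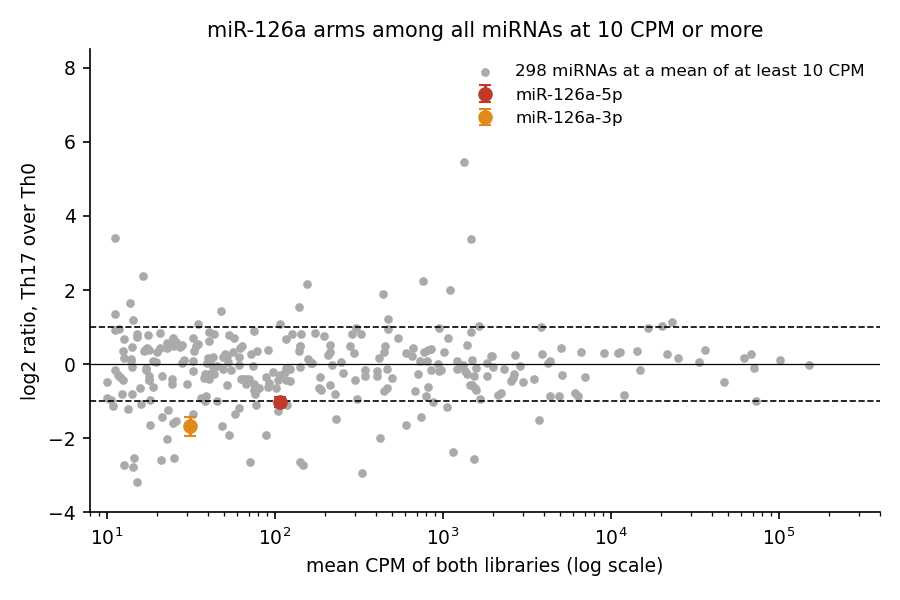
Log2 ratio of Th17 over Th0 (vertical axis) against the mean CPM of both libraries on a log scale (horizontal axis) for the 298 miRNAs that averaged 10 CPM or more; coloured points are the miR-126a arms with their 95% counting intervals and dashed lines mark 2-fold. miR-126a-5p (-1.02) sits on the lower dashed line and miR-126a-3p (-1.68) below it.

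The arms were not lower by the same factor. There were 4.75 reads of the 5p arm for each read of the 3p arm in Th17, and 3.01 in Th0. The ratio of these ratios was 1.58 (exact conditional interval 1.29 to 1.94), and it does not depend on how the libraries were scaled. Its interval leaves out 1 as far as counting error goes, but the arm ratios come from the same counts that selected the pair. As a share of the reads of both arms, the 5p arm took 82.6% in Th17 (exact binomial interval 80.1 to 84.9%) and 75.0% in Th0 (72.8 to 77.1%). The difference was 7.57 percentage points toward the 5p arm in Th17, and the intervals were apart. How well each arm is ligated and amplified was not measured, so the share is one of reads and not of molecules. The change in share compares the same sequences in both libraries, but whether they were ligated and amplified alike in both was not tested.

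Shares of the 5p arm were computed in the same way for 178 precursors, or groups of precursors with a mature miRNA in common, that had 100 or more reads per library. In 27 of them (15.2%) the 5p share was higher in Th17 with intervals apart, and in 27 (15.2%) it was lower. The median absolute change was 0.463 percentage points. Ordered from the largest change toward the 5p arm, mir-126a stood at place 2. The precursor above it was mir-200a, an epithelial miRNA, with a 5p share of 16.4% in Th17 (11.3 to 22.7%) and 7.74% in Th0 (5.12 to 11.1%), on 177 reads in Th17 and 336 in Th0. The precursor below it was mir-1306, with 88.0% in Th17 (84.5 to 91.0%) and 81.1% in Th0 (76.1 to 85.5%), where the intervals overlapped. Changes of at least this size in either direction were seen in 11 precursors, mir-126a included.

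Precursors whose reads come almost wholly from 1 arm have little room for a change in share. Among the 43 precursors with a 5p share between 10 and 90% in Th0, a range chosen after the values were seen, the median absolute change was 4.56 percentage points. In that range 5 precursors moved toward the 5p arm with intervals apart and 15 toward the 3p arm. mir-126a had the largest change toward the 5p arm there, but the range leaves out mir-200a, at 7.74% in Th0. The change of mir-200a was larger, 8.65 percentage points, so this first place depends on where the range was cut. The 5p arm gave more reads than the 3p arm, as it did for mir-126a, in 104 of the 178 precursors in Th17 and 109 in Th0.

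**Figure D3:**
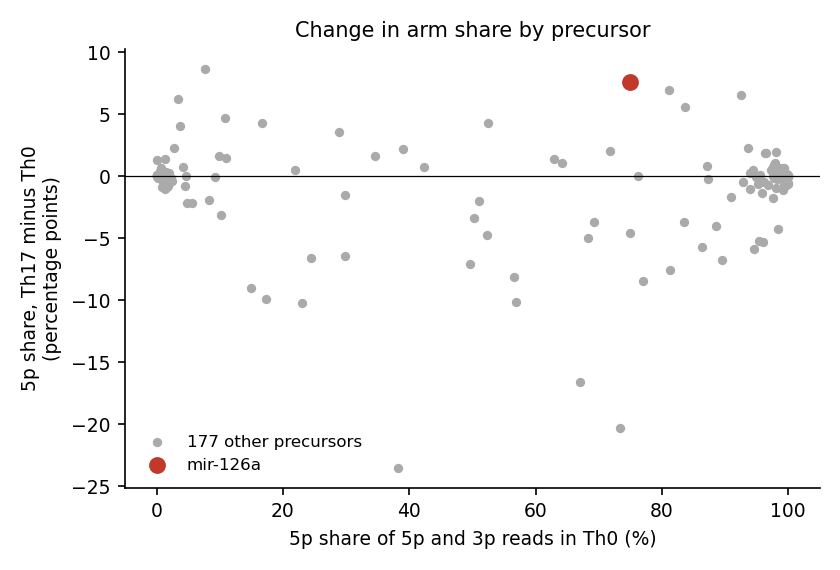
Change of the 5p share, Th17 minus Th0 in percentage points (vertical axis), against the 5p share in Th0 (horizontal axis) for 178 precursors with 100 or more reads per library. mir-126a lies at 75.0% and 7.57 percentage points, above every other precursor but mir-200a.

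For 75 precursors each arm was a single miRNA of its own with a mean of at least 10 CPM. In 7 of them (9.33%) both arms were at least 2-fold lower in Th17. mir-126a was 1 of the 7, together with mir-20b, mir-18b and mir-363 of the X-linked Mir106a cluster, mir-20a of the Mir17 cluster, mir-148a and mir-296. With DESeq2 size factors the count was 6, since miR-126a-5p no longer reached 2-fold. The log2 ratios of the arms of mir-126a differed by 0.66 (5p minus 3p, interval 0.37 to 0.95), and a difference at least as large in either direction was seen in 20 of the 75. The median absolute difference was 0.32. A gap between the arms of this size was therefore common among measured pairs. Of the 7 precursors, mir-126a had the widest gap, and mir-18b (-0.62) had the next widest, with its 5p arm the lower one.

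**Figure D4:**
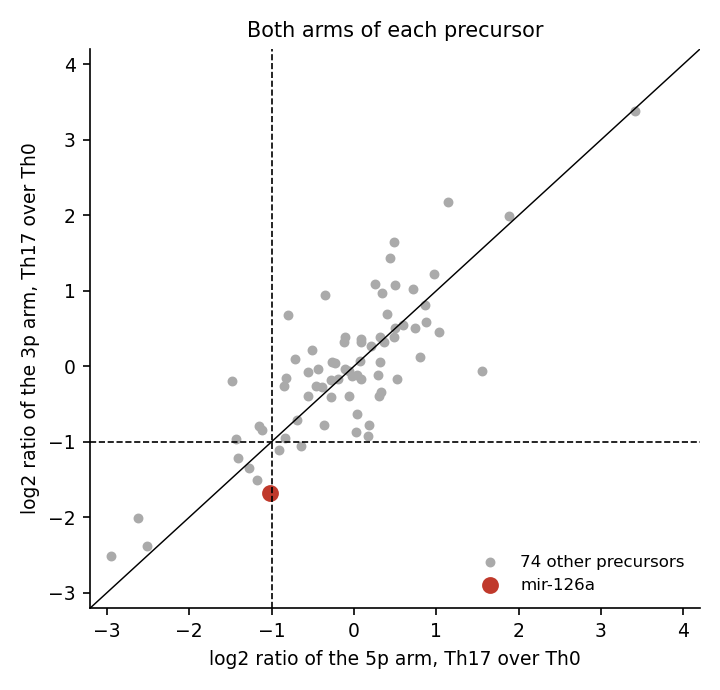
Log2 ratio of Th17 over Th0 for the 3p arm (vertical axis) against the 5p arm (horizontal axis) of 75 precursors; the solid line marks equal ratios and the dashed lines 2-fold lower. mir-126a is at -1.02 for the 5p arm and -1.68 for the 3p arm, below the solid line and just inside the corner where both arms are 2-fold lower.

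The miRNAs most like each arm were found by the distance between their log2 CPM values in the 2 libraries. The 5 nearest to miR-126a-3p were miR-7688-5p (distance 0.31), miR-5114, miR-200a-3p, miR-677-5p and miR-33-5p (0.71), with log2 ratios of Th17 over Th0 from -1.59 to -1.23. The 5 nearest to miR-126a-5p were miR-342-5p (0.20), miR-296-5p (0.21), miR-98-3p, miR-500-3p and miR-148b-5p (0.41). Of these, miR-342-5p was 2.16-fold lower in Th17 (1.98 to 2.35) and miR-296-5p 2.42-fold lower (2.21 to 2.66), and the other three were 1.35-fold to 1.55-fold lower. A likeness over 2 libraries says no more than that the values are close.

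Since miR-126 marks endothelial cells and blood progenitors, miRNAs of the other cell types that a spleen preparation could carry were read beside it. A list of 6 miRNAs abundant in T cells summed to 136717 CPM in Th17 and 102303 CPM in Th0. These sums were not compared with values from other cell types, so they do not establish the helper T cell identity of the cultures. The transcripts that define Th17 cells, such as Il17a, were not measured by this assay. For 4 of these 6 miRNAs the interval of the log2 ratio lay above 0, and for the other 2 it lay below. Of all 298 miRNAs that averaged at least 10 CPM, 40.6% had intervals above 0 and 47.7% below. The median log2 ratio of the 6 T cell miRNAs was 0.24, against -0.080 over the 298. miR-155-5p, a miRNA of activated lymphocytes, was 2.21-fold higher in Th17.

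Markers of the vessel wall and connective tissue were scarce apart from miR-10b-5p. Of 10 such miRNAs 7 were listed, 5 with intervals above 0 and none below, against 40.6% above 0 and 47.7% below over the 298. Of the 7 listed, only miR-10b-5p averaged at least 10 CPM, the level that these shares require. The list summed to 2639 CPM in Th17 and 62.1 CPM in Th0. miR-10b-5p, which is also high outside the vessel wall, made up most of this sum, with 2611 CPM in Th17 and 59.3 CPM in Th0. miR-143-3p, the smooth muscle miRNA, had 73 reads in Th17 and 6 in Th0, and miR-145a-5p from the same cluster had 1 read in each library. miR-199a-3p, a fibroblast miRNA, had 142 reads in Th17 and 10 in Th0. Of the stromal miRNAs, miR-143-5p, miR-145a-3p and miR-199b-5p were listed in neither table. The part of vascular or stromal cells in the miR-126a values was not tested, and no further miRNA specific to endothelium was in the list.

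Of 7 markers of red cells, platelets and myeloid cells, 3 had intervals above 0, 4 spanned 0 and none was below. Over the 298 the share above 0 was 40.6%, but it requires a mean of at least 10 CPM, which these 3 did not reach. The 2 that averaged at least 10 CPM both spanned 0. The list summed to 344 CPM in Th17 and 330 CPM in Th0. miR-486a-5p, with 167 CPM in Th17 and 163 CPM in Th0, and its partner miR-486b-5p, which cannot be read as separate from it, made up nearly all of the sum. Their counts were almost equal, 1995 and 1999 reads in Th17 and 1360 and 1361 in Th0. The sum may therefore hold the same reads under both names, and the pair may be 1 measurement. miR-223-3p, the myeloid and platelet miRNA, was at 6.76 CPM in Th17 and 3.35 CPM in Th0. miR-451a, the red cell miRNA, had 24 reads in Th17 and 6 in Th0.

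Of 7 miRNAs of blood progenitors, 5 had intervals above 0, 1 below and 1 spanned 0, against 40.6% above 0 and 47.7% below over the 298. At a mean of at least 10 CPM there were 2 of the 7, miR-130a-3p above 0 and miR-10a-5p below. miR-196b-5p, from a Hox cluster, had 110 reads in Th17 and 1 read in Th0, and miR-125b-5p had 62 reads in Th17 and 4 reads in Th0. The member below 0 was miR-10a-5p, with 2292 CPM in Th17 and 2976 CPM in Th0, which set the direction of the sum (2391 CPM in Th17 and 3033 CPM in Th0). It ranked 40th in Th17 and 35th in Th0, and which cells its reads came from was not tested. The sum is therefore no measure of the amount of progenitors.

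Epithelial miRNAs were mostly lower in Th17, as miR-126a was. All 7 were listed, 6 had a mean of at least 10 CPM, and 5 of these 6 had intervals below 0 and 1 above. Across all 298 miRNAs 47.7% had intervals below 0 and 40.6% above. Of the 6, 2 were at least 2-fold lower in Th17, against 13.1% of the 298. The list summed to 229 CPM in Th17 and 414 CPM in Th0, and its median log2 ratio was -0.70, against -0.080 over all 298. miR-200b-3p had 447 reads in Th17 and 1181 in Th0 and was 3.79-fold lower (3.39 to 4.23). miR-200a-3p, 1 of the 5 miRNAs nearest to miR-126a-3p, was at 12.4 CPM in Th17 and 37.1 CPM in Th0 (interval of the fold lower 2.46 to 3.68). miR-200c-3p, of the same family, was 1.37-fold higher in Th17 (1.15 to 1.64), whereas miR-141-3p was 1.34-fold lower (1.23 to 1.45). miR-205-5p had 1 read in Th17 and none in Th0. Members of 1 family can be made from shared transcripts, so these miRNAs are not independent when counted against the 298. The part of epithelial cells in the miR-126a values was not tested.

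**Figure D5:**
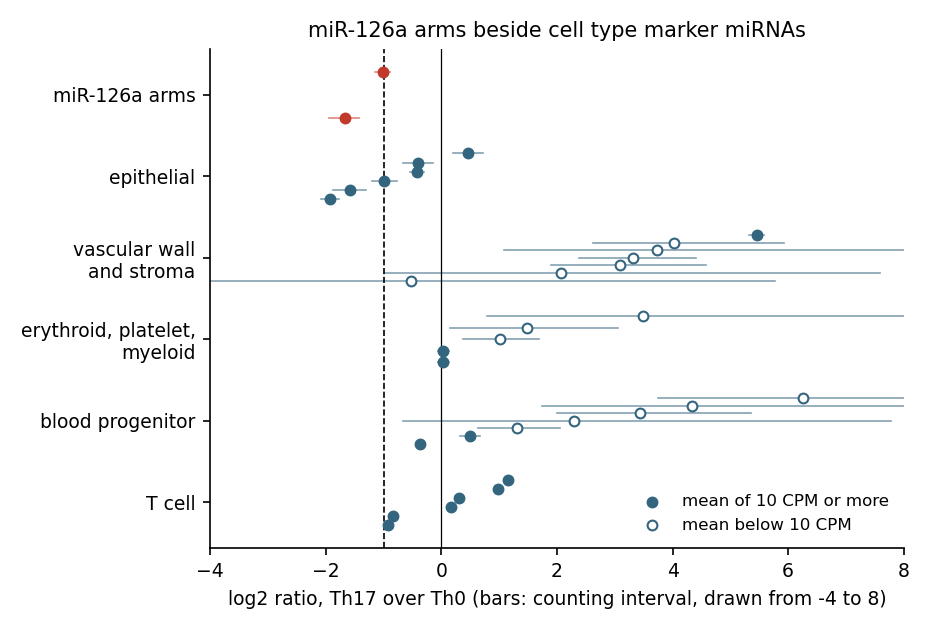
Log2 ratio of Th17 over Th0 (horizontal axis) for the miR-126a arms and for the members of 5 marker lists (rows) with reads in both libraries; bars are 95% counting intervals, filled points have a mean of at least 10 CPM, and the dashed line marks 2-fold lower. The epithelial row is the marker list with points past that line, and the points of the vascular wall and stroma row lie above 0 apart from miR-145a-5p on 1 read per library.

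A further list holds 4 miRNAs linked to the DNA methyltransferase DNMT1, which miR-126 and miR-148a were reported to lower in human CD4+ T cells in lupus. miR-148a-3p was 2.84-fold lower in Th17 (2.79 to 2.88), with 1954 CPM in Th17 and 5542 CPM in Th0. Apart from miR-126a-3p, whose lower value in Th17 chose it, miR-148a-3p was the only one of the other 3 members that was at least 2-fold lower, against 13.1% of the 298 miRNAs. miR-29b-3p had the highest log2 ratio of the list, 0.81, with 414 CPM in Th17 and 235 CPM in Th0. miR-21a-5p, the most abundant miRNA of both libraries, was at -0.026.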

How the data were processed

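The authors deposited 1 table per library with whole-number read counts per mature miRNA, not normalized, and TPM values; per the file headers these are reads and TPM, and tested on the files the TPM values are the counts divided by 1 total per library, with no length term. Per the submitters' processing notes the genome was mm10. The sources used here name no trimming tool, aligner, annotation release or rule for multiply matching reads. All comparisons start from the counts, and a miRNA absent from a table was taken as 0. Listed reads totalled 11975371 (Th17) and 8358010 (Th0), so 3 reads correspond to 0.251 CPM and 0.359 CPM.

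Counts were divided by the column sum. Intervals (95%) are exact: Poisson for counts, Clopper-Pearson for shares, and, for ratios, conditional on the summed count (Python 3.11.15, SciPy 1.17.1). Alternatives used edgeR 4.0.16 TMM factors and DESeq2 1.42.0 size factors in R 4.3.3, for scaling only. The calculations were tested on simulated Poisson counts with known totals. Such counts hold no PCR copies, scaling error or spread between cultures, so the test does not cover these. No column of per-sample values was left unused.

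Named miRNAs are the members, the 5 nearest to each, list members, Mir126b and miRNAs within 1 Mb, seed matches, and neighbours at the thresholds. The members and the lists were chosen with earlier results of these data known. The other precursors with both arms lower, and the range of shares from 10 to 90%, were chosen after their values were seen. Of the lists examined, 1 is not reported here.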

Additional observations from a re-analysis of the deposited data

How the results depend on the processing

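Of 52 values recomputed under an alternative, 47 did not move beyond counting error or, for counts, beyond 1.5 times. Some of the 52 had little or no room to move, so 47 is no measure of stability. The vessel wall and connective tissue list had 1 miRNA at the minimum level, with a log2 ratio of 5.46. The 5p share from TPM was fixed in advance, as TPM are the counts over 1 total per library. Counts for the list that is not reported here are also among the 52. miR-126a-3p had log2 ratios from -1.81 to -1.60 and miR-126a-5p from -1.15 to -0.94, below 0 under each alternative run. The value of miR-126a-5p that left its counting interval was -1.15 (2.21-fold lower), with the 10 most abundant miRNAs left out of the total, a choice that moved the median of the 298 miRNAs by -0.13. The distance of the arms to that median stayed the same, since every ratio shifts alike. miR-126a-5p was under 2-fold with DESeq2 size factors (-0.94). The count of 39 miRNAs at least 2-fold lower was 263 of 1125 with no minimum level, 76 of 542 at 1 CPM and 15 of 158 at 100 CPM, as other numbers of miRNAs were counted; it was 36 to 48 under other scalings. Among the T cell markers, 1 was 2-fold lower without the 10 most abundant, against 0. With the 10 most abundant left out, the medians of the red cell, platelet and myeloid list and of the blood progenitor list were below 0, at -0.095 and -0.071. The place of mir-126a among changes toward the 5p arm was 4 of 204 precursors at 50 reads and 1 of 134 at 500 reads. The minimum of 500 reads left out mir-200a, which had 177 reads in Th17 and 336 in Th0. The scaling alternatives for precursor pairs and lists were added after seeing the data. No paired analysis was possible because each group has 1 library, and for the same reason no replicate could be left out. Depth limits miR-126a-3p most, at 179 reads in Th17.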
